A study of Mus musculus with 36 samples.

Results

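The oxidative phosphorylation genes were followed in eosinophils, granulocytes of blood and mucosal tissues, sorted from 7 mouse tissues and from the small intestine of reporter mice. Members were all genes of the deposited tables whose symbol marks a nuclear-encoded subunit of respiratory complexes I to IV or of ATP synthase (complex V), that is Ndufa, Ndufb, Ndufc, Ndufs, Ndufv, Sdha to Sdhd, Uqcr, Cox4 to Cox8 and Atp5. The rule found 87 of the 9844 genes of the tissue table and 83 of the 8001 genes of the sorted table, and the 83 were among the 87. Cox6b2, Cox7a1, Ndufaf4 and Ndufaf5 were in the tissue table only. By role, the 87 comprised 37 subunits of complex I, 4 of complex II, 8 of complex III, 13 of complex IV and 17 of complex V, together with 7 assembly factors of complex I (the Ndufaf genes) and Cox7a2l. The Cox7a2l protein is described as joining complexes III and IV into supercomplexes, and whether it does so in the mice used was not examined. Ndufa4 was counted with complex IV, where its protein sits. All 87 and all 83 passed the filter on low values.

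Total eosinophils came from wildtype C57BL/6 mice aged 8 to 12 weeks, males and females pooled, at steady state, with 3 libraries each from bone marrow, lung, skin and colon and 4 each from blood, spleen and small intestine. The sort used NMUR1-TdT reporter mice of the same strain and age, with sexes pooled, and gave 5 reporter-positive and 6 reporter-negative libraries of small intestine eosinophils. Nmur1 encodes a receptor of the neuropeptide neuromedin U, and cells were gated on the reporter, not on the Nmur1 transcript. Nothing in the labels ties a replicate to its own animal. A p-value here therefore weighs a difference against library-to-library spread only, and that spread can include technical error. Values are TPM, transcript abundances corrected for transcript length and scaled to a fixed library total, and the depth behind them is unknown.

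The respiratory chain passes electrons from NADH (complex I) and succinate (complex II) through ubiquinone to complex III, cytochrome c and complex IV, where oxygen is reduced. Complexes I, III and IV pump protons across the inner mitochondrial membrane, and complex V uses the gradient to make ATP. Most subunits are encoded in the nucleus and a few in mitochondrial DNA, and granulocytes are known for a strong use of glycolysis, eosinophils less exclusively than neutrophils. None of the mitochondrially encoded subunits was analysed here.

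The sorted cells carried transcripts of the eosinophil surface proteins Siglecf and Ccr3. Granule protein transcripts were most abundant in bone marrow and next in spleen. Siglecf, a surface lectin of eosinophils, lay between 104.85 and 347.1 TPM in the tissue libraries and between 113.82 and 313.87 TPM in the sorted libraries. Ccr3, the eotaxin receptor, was at 273.74 TPM or more in every tissue library. Epx, a granule protein gene, was at 1164.25 to 1789.53 TPM in bone marrow and 37.13 to 320.23 TPM in spleen. It was at most 2.13 TPM in blood, lung, skin and small intestine and 0 in colon. Prg2, another, went from 60287.91 to 84506.9 TPM in bone marrow, from 2910.64 to 19974.43 TPM in spleen and from 26.63 to 74.32 TPM in small intestine. Nmur1 was at 25.86 to 53.07 TPM in positive and 0 to 15.58 TPM in negative libraries, so the groups did not overlap for the gene behind the gate. Markers of other cells differed between tissues. The 10 listed neutrophil and granulocyte precursor genes summed to between 50670 and 58960 TPM in bone marrow, to between 648.2 and 8608 TPM in spleen, and to at most 269.3 TPM in any library of the other tissues. The 6 listed erythroid genes summed to between 39110 and 118800 TPM in blood and to between 70.91 and 348.8 TPM in colon.

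Promoter stretches are shown as examples for 6 of the members named below: Sdha and Ndufa10, highest in the small intestine, Sdhd and Uqcrh of complexes II and III, Ndufa6, and Atp5h, lower in the small intestine and in Nmur1-positive cells. Each is 100 bases of the plus or minus strand 5′ to 3′, from RefSeq (build GRCm38.p6), ending at the last base upstream of both the RefSeq start and the GENCODE gene. Capitals mark matches, on either strand, to motifs of NRF1 (GCGCA, any base, then GCGC), ETS factors (CCGGAAG), YY1 (AAGATGGCG) or SP1 (GGGCGG), factors known from promoters of respiratory genes.
Sdha (chr13:74350281-74350380, minus strand): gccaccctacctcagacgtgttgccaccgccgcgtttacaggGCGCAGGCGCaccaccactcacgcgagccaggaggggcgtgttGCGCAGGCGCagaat
Sdhd (chr9:50603850-50603949, minus strand): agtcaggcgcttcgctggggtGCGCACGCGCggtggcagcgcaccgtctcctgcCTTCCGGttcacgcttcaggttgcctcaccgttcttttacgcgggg
Uqcrh (chr4:116075072-116075171, minus strand): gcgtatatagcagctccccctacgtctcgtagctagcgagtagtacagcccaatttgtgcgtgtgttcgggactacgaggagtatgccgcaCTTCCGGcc
Atp5h (chr11:115419963-115420062, minus strand): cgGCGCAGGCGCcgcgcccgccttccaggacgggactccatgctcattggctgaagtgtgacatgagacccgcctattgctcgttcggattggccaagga
Ndufa10 (chr1:92473861-92473960, minus strand): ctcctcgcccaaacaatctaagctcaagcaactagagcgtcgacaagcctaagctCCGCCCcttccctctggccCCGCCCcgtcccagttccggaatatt
Ndufa6 (chr15:82354323-82354422, minus strand): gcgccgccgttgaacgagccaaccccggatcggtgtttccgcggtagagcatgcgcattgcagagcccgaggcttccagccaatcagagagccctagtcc

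The capitals mark NRF1 matches in Sdha (2), Sdhd and Atp5h, an ETS match in Sdhd and Uqcrh, and 2 SP1 matches in Ndufa10, while the Ndufa6 stretch held none of the 4 motifs. The stretches of Ndufa1, Ndufb3, Ndufb7 and Uqcrc1, also named below but not shown, held none either. The examples therefore do not give the share of members with a motif in such a stretch. In the longer windows of the RefSeq table, 250 bases before to 50 bases after the start, 79 promoters of 74 members could be read, and 13 members had no entry. NRF1 letters were in 25.3% of the members' promoters, in 11% of 10140 promoters of genes tested in the tissue table and in 4.6% of all 32851 promoters. The ETS letters were in 24.1%, 19.7% and 8.86%, the YY1 letters in 10.1%, 3.43% and 1.4%, and the SP1 letters in 44.3%, 63.2% and 35.7% of the same 3 sets. Motifs were counted separately and may overlap. These are counts of letters, with no test and no measurement of binding.

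Most members differed between tissues, but so did most genes. The F-test over the 7 tissues (limma on log2(TPM + 1), Benjamini-Hochberg adjusted p under 0.05 over all genes) called 79 of the 87 members, against 81.1% of the 9806 genes tested. All 4 subunits of complex II, all 8 of III, all 13 of IV, all 17 of V and 32 of 37 of complex I were called. The 8 members not called were all of complex I: Ndufa1, Ndufa2, Ndufa9, Ndufb4, Ndufs4 and the assembly factors Ndufaf1, Ndufaf3 and Ndufaf8. Differences in level were moderate: the ratio of the highest to the lowest tissue mean had a median of 2.14 over the members and was at least 2 for 51 of 87. The same ratio over all genes is not given here.

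Summed over members, bone marrow had the most respiratory transcript and the 2 gut tissues the least. The sums were 27300 ± 149.6 TPM in bone marrow (SD, n = 3), 25160 ± 3082 in spleen (n = 4), 24550 ± 1451 in lung (n = 3), 24460 ± 983.5 in skin (n = 3), 22780 ± 1347 in blood (n = 4), 19420 ± 576.9 in colon (n = 3) and 19150 ± 979.8 in small intestine (n = 4). Every colon and small intestine library (18367.2 to 20546 TPM) lay below every library of the other 5 tissues (21544.7 TPM or more). One spleen library reached 29709.8 TPM, above bone marrow, while the lowest spleen library was at 22855.2 TPM. That library, spleen 1, is also the one that stands apart in several single genes below. In sorted bulk libraries, fewer cells of a type and less RNA per cell cannot be told apart.

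The place of lung in this order depended on scaling. Lung libraries had median-ratio size factors of 0.736 to 0.749, against 0.9 to 1.158 in the other tissues, that is, a typical gene was lower in TPM there. After division by these factors the lung sum was 33030 ± 2057 (SD, n = 3), above bone marrow at 29260 ± 1016 (n = 3), and colon (18090 ± 640.9, n = 3) and small intestine (17880 ± 678.8, n = 4) were still the lowest. Bone marrow had the highest mean for 49 members in deposited TPM and for 50 after this scaling, and lung for 7 and then 30. The shares of all genes are not given here, so whether members stand out in these counts cannot be told. Levels of single genes below are deposited TPM, so their order between lung and other tissues carries the same dependence on scaling.

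**Figure D1:**
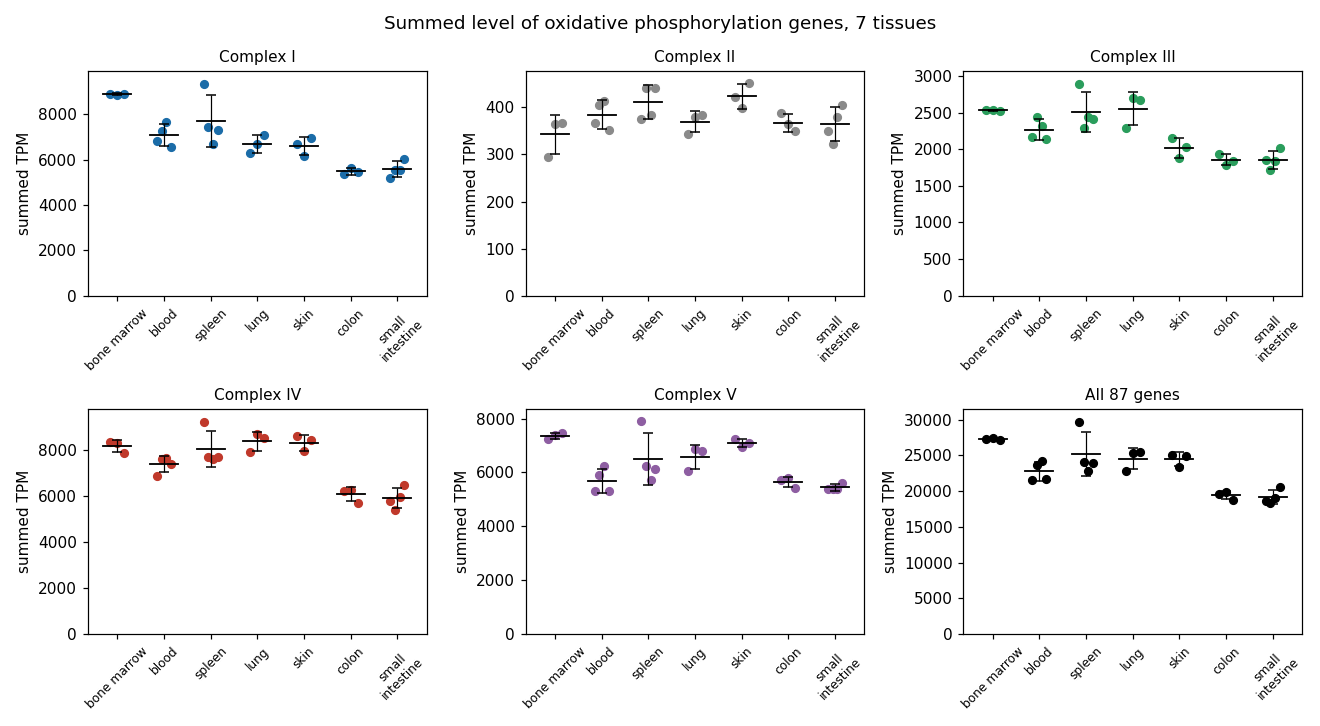
Summed TPM (vertical axis, from 0) of the members of each complex and of all 87 members, by tissue (horizontal axis). Points are libraries, horizontal bars are means and whiskers are SD. Bone marrow libraries lie together at 27146.6 to 27445.8 TPM in the panel of all genes, and colon and small intestine lie below the other 5 tissues.

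The complexes did not share 1 order. In deposited TPM, complex I summed to 8899 ± 28.3 TPM in bone marrow (SD, n = 3) against 5492 ± 149.5 in colon (n = 3) and 5587 ± 343.3 in small intestine (n = 4). In the same units complex IV was about as high in lung (8361 ± 414.4, n = 3), skin (8310 ± 345.7, n = 3) and bone marrow (8167 ± 250.8, n = 3), whose libraries overlapped, and lower in colon (6063 ± 311.4, n = 3) and small intestine (5899 ± 449.8, n = 4). Complex V was also highest in bone marrow, with 7357 ± 108.2 TPM in bone marrow (n = 3), but skin was next at 7097 ± 145 (n = 3) and blood (5689 ± 447.3, n = 4), colon (5644 ± 202.6, n = 3) and small intestine (5442 ± 120.1, n = 4) lay together. Complex III was about as high in lung (2553 ± 228.4 TPM, n = 3), bone marrow (2531 ± 8.928, n = 3) and spleen (2507 ± 266.6, n = 4), whose libraries overlapped. It was lowest in colon (1853 ± 75.29, n = 3) and small intestine (1856 ± 121.1, n = 4). Complex II had the narrowest range, from 342.5 ± 40.65 TPM in bone marrow (n = 3) to 423.9 ± 26.4 in skin (n = 3), and its small intestine value of 364.4 ± 35.83 (n = 4) overlapped that of bone marrow. After median-ratio scaling, lung had the highest sums of complexes II (496.6 ± 31.85, n = 3), III (3435 ± 314.3), IV (11250 ± 566.8) and V (8832 ± 627.1). Bone marrow was then at 366.2 ± 32.7, 2712 ± 95, 8758 ± 516.8 and 7882 ± 144.3 (n = 3). The complex IV libraries of lung, bone marrow and skin (7341 ± 134.4, n = 3) then no longer overlapped, and the lowest complex II mean was that of small intestine (339.8 ± 25.94, n = 4). The order of single genes within each complex varied more than these sums show.

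**Figure D2:**
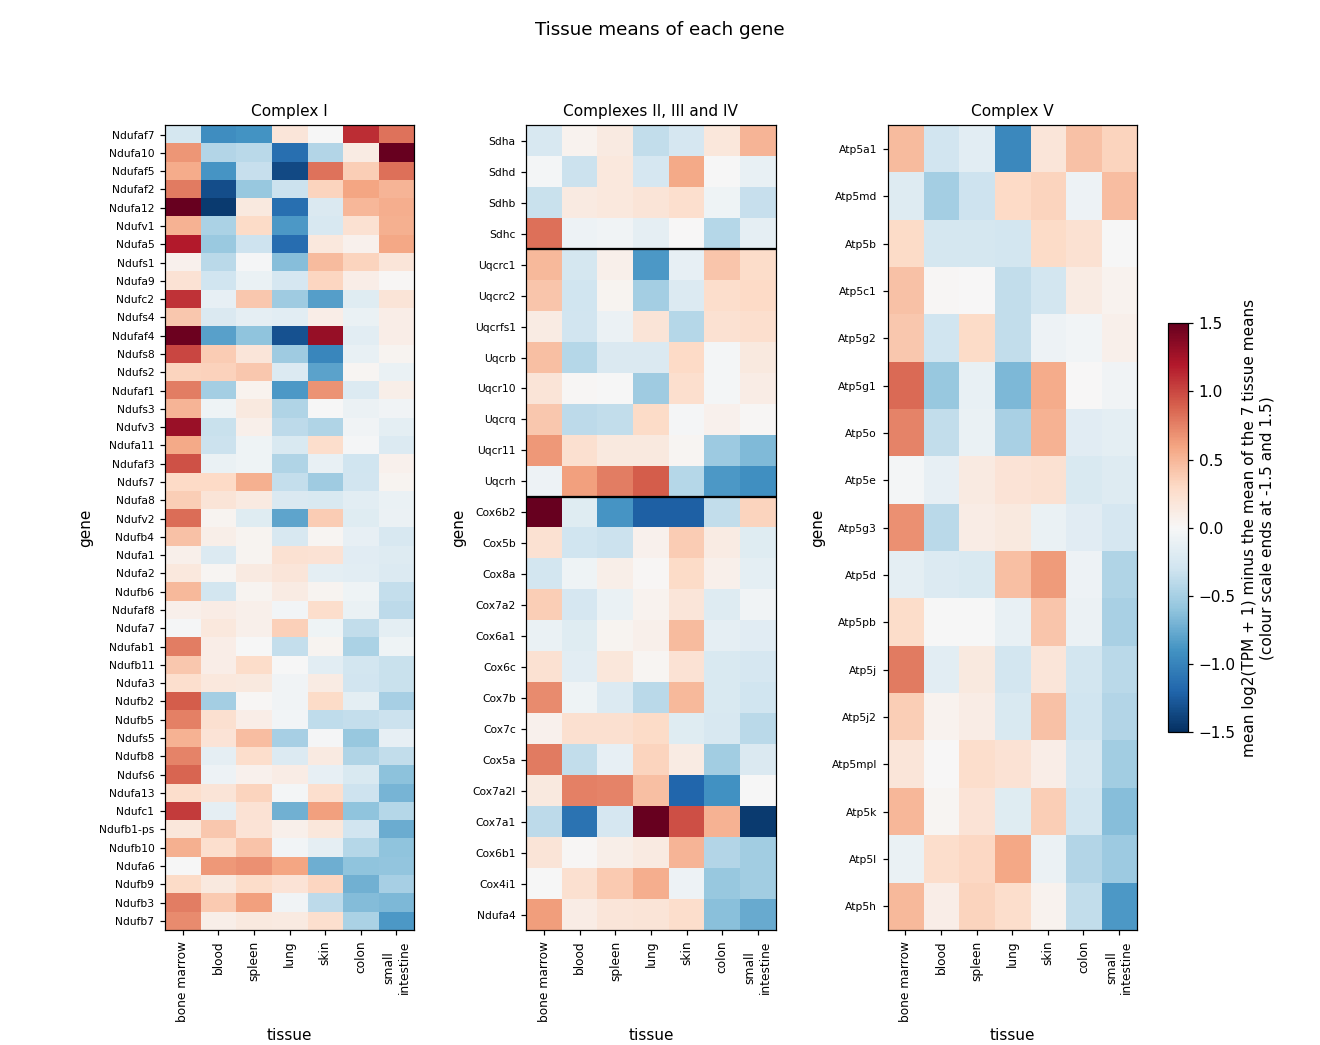
Mean log2(TPM + 1) of each member (rows, by complex) in each tissue (columns), minus the mean of its 7 tissue means. Red is above and blue below that mean, and the scale ends at -1.5 and 1.5. The bone marrow column is mostly red, while Uqcrh, Ndufa6, Cox4i1 and Cox7a2l are red in blood, spleen and lung.

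In complex I, the smallest F-test p was that of Ndufa6, an accessory subunit of the matrix arm (chr15:82350140-82354322, minus strand). Its level was 626, 491 and 563 TPM in bone marrow, 896, 951, 889 and 797 in blood, 1121, 990, 748 and 811 in spleen, and 861, 798 and 890 in lung. It was 330, 319 and 360 TPM in skin, 296, 426 and 394 in colon, and 353, 417, 341 and 387 in small intestine. All libraries of blood, spleen and lung were thus above all bone marrow libraries, and these above all libraries of skin, colon and small intestine (limma F-test, adjusted p = 7.684e-11). Against the mean of the 6 other tissues the log2 difference was 0.76 ± 0.10 (SE) in blood, 0.81 ± 0.10 in spleen and 0.70 ± 0.11 in lung, and it fell by 0.86 in skin, by 0.71 in colon and by 0.68 in small intestine, each called by limma.

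Ndufa10, an accessory subunit of the membrane arm (chr1:92439010-92473860, minus strand), had another order. It was at 156, 124, 123 and 151 TPM in small intestine, 70.9, 77.2 and 64.7 in bone marrow, 53, 51.3 and 40.7 in colon, 21.4, 35.5, 58 and 27.1 in spleen, 33.5, 28.4, 40 and 28.8 in blood, 37.7, 25.7 and 35.2 in skin, and 18.3, 19.4 and 21.5 in lung. Every small intestine library was above every library of the other tissues, the only member for which this tissue stood alone at the top. How many of all genes did so is not given here. The difference in small intestine was 1.89 ± 0.17 (SE, log2, limma adjusted p = 1.548e-09), and that in lung was -1.31 ± 0.19 (adjusted p = 6.498e-06). In spleen, Ndufa10 was lower at -0.47 (limma adjusted p = 0.041), a call lost when any of several single libraries was left out (without spleen 1, -0.27, adjusted p = 0.266).

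Ndufa12, an accessory subunit of the matrix arm (chr10:94198720-94221443, plus strand), was at 112, 114 and 106 TPM in bone marrow, against 6.41, 14.5, 24.8 and 10.8 TPM in blood. It lay between 36.5 and 71.9 TPM in colon, between 41.9 and 63.9 in small intestine, between 28.9 and 48.2 in spleen, between 30.2 and 31.5 in skin and between 11.2 and 20.6 in lung. Bone marrow did not overlap with any other tissue (log2 difference 1.86 ± 0.25 SE, limma adjusted p = 1.008e-06), and blood was the lowest (-1.68 ± 0.22, adjusted p = 1.729e-06). Ndufb3, of the membrane arm, was also highest in bone marrow (212.3 ± 7.754 TPM, SD, n = 3) and lowest in small intestine (78.56 ± 14.78, n = 4) and colon (79.51 ± 12.8, n = 3). Ndufa5, of the matrix arm, was highest in bone marrow (220 ± 8.121 TPM, n = 3) and next in small intestine (147.4 ± 34.97, n = 4), the fold between bone marrow and lung being 5.06. It was higher in small intestine at 0.68 ± 0.18 (SE, log2, limma adjusted p = 0.0036; 0.067 after quantile normalization). Ndufb7, of the membrane arm, was at 93.3, 89.4, 151 and 132 TPM in small intestine, against 343, 350 and 332 in bone marrow, and was lower in small intestine at -1.01 ± 0.13 (adjusted p = 9.189e-07). Ndufb9, of the same arm, was lowest in colon, at 202, 153 and 170 TPM, with a log2 difference of -0.85 ± 0.12 (limma adjusted p = 3.882e-06). Ndufs8, an iron-sulfur core subunit, was lowest in skin at 61.5, 53.4 and 23 TPM, against 154, 170 and 190 TPM in bone marrow (log2 difference in skin -1.14, limma adjusted p = 0.00024). Ndufa1, the most abundant complex I member, spanned means of 656.8 to 877.8 TPM and was not called (limma F-test, adjusted p = 0.068; 0.0013 after median-ratio scaling and 0.032 after quantile normalization).

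Among the assembly factors, which help build complex I and are not part of it, Ndufaf7, a methyltransferase, was higher in colon (78.2, 44 and 54.9 TPM) and small intestine (51.2, 57.3, 40.4 and 40.4) than in blood (16.5, 18.7, 8.34 and 11.7), with no overlap between gut and blood. Its log2 difference was 1.29 ± 0.33 (SE) in colon and 0.95 ± 0.29 in small intestine by limma, and the colon call was lost without colon 1 (1.07, adjusted p = 0.072). Ndufaf4 was low everywhere, at 4.83, 8.32 and 6.22 TPM in bone marrow and 3.71, 7.8 and 5.63 in skin, and in lung it was listed at 0 in 2 libraries and at 0.2 in the other. Ndufaf2 was lowest in blood, at 2.93, 7.3, 2.55 and 3.52 TPM (limma log2 difference -1.55, adjusted p = 0.00051). These low values rest on few reads, although how few is unknown.

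Complex II, which is also an enzyme of the citric acid cycle, did not move as 1 unit. Sdha, the flavoprotein that oxidises succinate (chr13:74322254-74350280, minus strand), was at 140, 116, 133 and 119 TPM in small intestine, 119, 99.4 and 83.9 in colon, and 69.9, 64.9 and 70.9 in lung. It was higher in small intestine by 0.60 ± 0.11 (SE, log2, limma adjusted p = 8.236e-05). Sdhb, the iron-sulfur subunit, went the other way in the same libraries. It was at 128, 146, 174 and 183 TPM in small intestine and 126, 172 and 180 in bone marrow, against 256, 217 and 238 in skin, and small intestine was lower at -0.40 ± 0.11 (limma adjusted p = 0.0048). Complex II had 1 subunit higher and 1 lower in small intestine under both other scalings as well.

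The membrane anchors of complex II differed from each other too. Sdhc was at 49.9, 65.4 and 51.4 TPM in bone marrow, above every other library (16.8 to 46.1 TPM), with a log2 difference of 0.96 ± 0.22 (SE, limma adjusted p = 0.00085). Sdhd was at 65.2, 75.1 and 106 TPM in skin, where it was higher by 0.66 ± 0.17 (adjusted p = 0.004; not called at 0.055 after median-ratio scaling, 0.086 after quantile normalization or 0.07 without skin 4), and means of the other tissues lay between 43.11 and 60.39 TPM. The F-test calls of these anchors were the weakest of the complex. That of Sdhd (adjusted p = 0.013) was lost without skin 4 (0.076), with median-ratio scaling (0.077) and with quantile normalization (0.06), and that of Sdhc (adjusted p = 0.013) without bone marrow 2 (0.109), all by limma.

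Complex III held the member with the smallest F-test p of all 87. Uqcrh, the hinge protein next to cytochrome c1 (chr4:116066965-116075071, minus strand), was at 993, 1331 and 1382 TPM in lung, 1349, 1007, 1085 and 1044 in spleen, and 975, 1061, 1037 and 923 in blood. It was at 642, 615 and 595 TPM in bone marrow, 433, 423 and 619 in skin, 332, 381 and 366 in colon, and 324, 317, 373 and 370 in small intestine. Every library of blood, spleen and lung was above every library of the other 4 tissues, and small intestine and colon overlapped at the bottom, with a ratio of 3.57 between the lung and small intestine means. The limma F-test gave an adjusted p of 1.82e-12, and the log2 difference ran from 1.06 ± 0.11 (SE) in lung to -1.07 ± 0.10 in small intestine.

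The core subunits of complex III did not share that order. Uqcrc1 (chr9:108936633-108949623, plus strand) was at 91.8, 94.6 and 89.9 TPM in lung, below every other library (100.75 TPM or more), and at 209, 253 and 250 in bone marrow, 245, 201 and 231 in colon, and 183, 242, 175 and 227 in small intestine. It was lower in lung at -1.01 ± 0.15 (SE, log2, limma adjusted p = 4.959e-06) and higher in small intestine at 0.33 ± 0.13 (adjusted p = 0.047). After median-ratio scaling the lung difference was smaller, at -0.52 (limma adjusted p = 0.0053). The small intestine call was lost after median-ratio scaling (0.20, 0.224), after quantile normalization (0.07, 0.686) and on leaving out each of 16 single libraries in turn (adjusted p up to 0.197, without small intestine 2). Its call in colon (0.48, adjusted p = 0.019) was lost without colon 1 (0.42, 0.126), without colon 4 (0.46, 0.085), after median-ratio scaling (0.35, 0.093) and after quantile normalization (0.26, 0.181). Uqcr11, a small subunit, was at 334, 323 and 347 TPM in bone marrow, above every other library, and at 103, 129, 138 and 176 in small intestine. Uqcrb, the ubiquinone-binding subunit, was highest in bone marrow (498.4 ± 44.02 TPM, SD, n = 3) and lowest in blood (268.9 ± 24.37, n = 4), the opposite order to Uqcrh for these tissues.

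**Figure D3:**
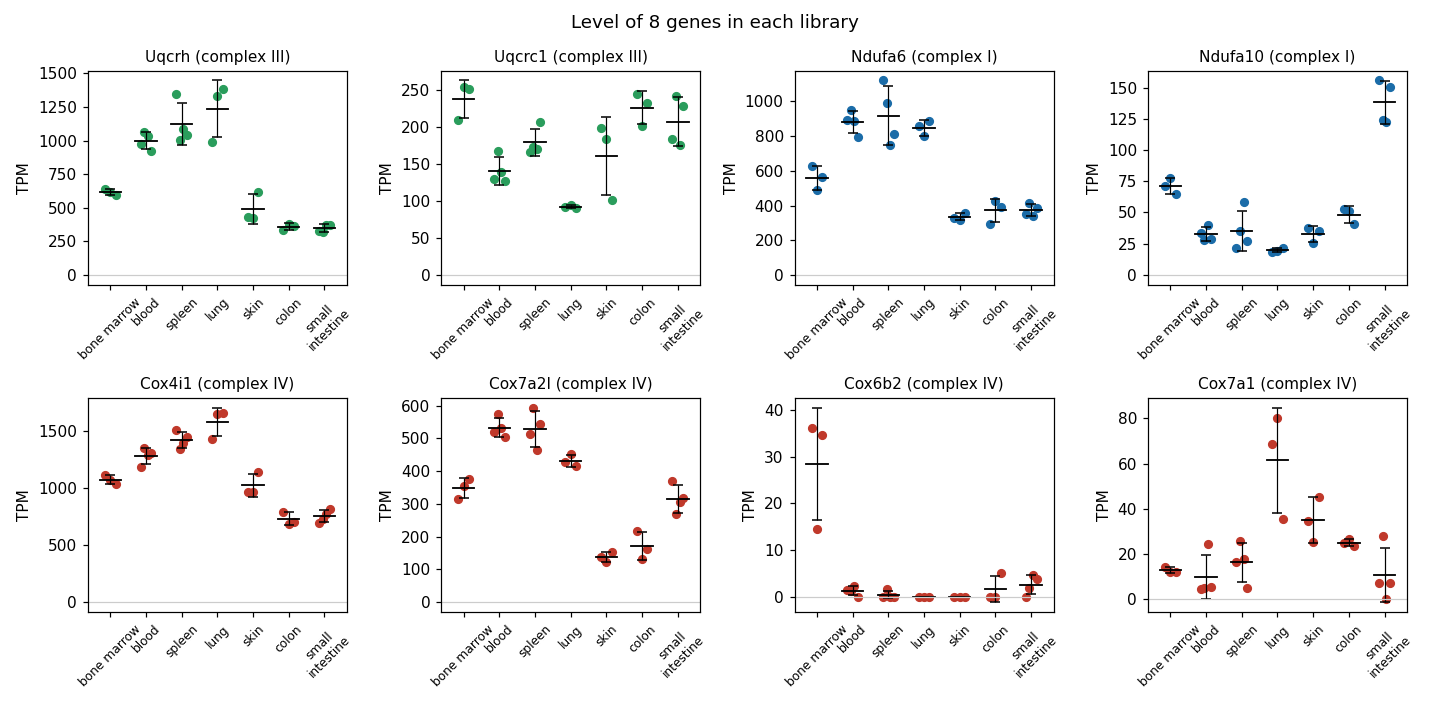
TPM (vertical axis) of 8 members in each library, by tissue (horizontal axis). Points are libraries, horizontal bars are means and whiskers are SD. Uqcrh, Ndufa6, Cox4i1 and Cox7a2l are high in blood, spleen and lung, Ndufa10 is highest in small intestine, Uqcrc1 is lowest in lung, Cox6b2 is near 0 outside bone marrow and Cox7a1 is highest in lung.

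In complex IV, Cox4i1, a regulatory subunit and the most abundant member of this complex (chr8:120668222-120674207, plus strand), was at 1434, 1648 and 1653 TPM in lung, 1505, 1338, 1395 and 1451 in spleen, and 1183, 1354, 1289 and 1304 in blood. It was at 1116, 1071 and 1035 TPM in bone marrow, 968, 965 and 1139 in skin, 794, 689 and 706 in colon, and 695, 729, 774 and 817 in small intestine. Both gut tissues were below every other library, and their difference was -0.66 ± 0.08 (SE, log2) in colon and -0.61 ± 0.07 in small intestine (limma F-test over the tissues, adjusted p = 2.989e-10). Its exons share bases with Emc8 on the opposite strand, and no strand setting is given in the sources used here, so reads of the pair cannot be told apart. Cox6b1, a small subunit at the dimer interface, was at 1006, 830 and 1129 TPM in skin, above every other library, and at 475, 480, 485 and 476 in small intestine. After median-ratio scaling its log2 difference was 0.38 in skin and 0.65 in lung, so skin no longer had the highest level. Ndufa4 was highest in bone marrow (827, 801 and 769 TPM) and lowest in small intestine (259, 223, 334 and 462) and colon (294, 357 and 359).

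Cox7a2l (chr17:83501918-83517330, minus strand) separated skin and colon from the rest. It was at 519, 573, 533 and 505 TPM in blood, 513, 593, 464 and 543 in spleen, 426, 452 and 415 in lung, 314, 354 and 374 in bone marrow, and 370, 268, 304 and 318 in small intestine. In colon it was at 217, 133 and 162 TPM and in skin at 137, 123 and 154. The gut tissues therefore differed from each other here without overlap, unlike for Uqcrh or Cox4i1, and the limma F-test gave an adjusted p of 7.365e-12. The log2 difference was -1.39 ± 0.12 (SE) in skin, -1.05 ± 0.12 in colon and -0.01 ± 0.10 in small intestine.

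The restricted isoforms of complex IV were low. Cox6b2, an isoform known from testis, was at 36.2, 14.5 and 34.6 TPM in bone marrow and at most 4.96 TPM in any other library, and it was listed at 0 in all 3 lung and all 3 skin libraries. Bone marrow was higher at 4.14 ± 0.48 (SE, log2, limma adjusted p = 9.064e-08). Its calls as lower in lung and skin, where it was listed at 0, were lost without any 1 of the lung libraries (adjusted p = 0.051 to 0.053) or of the skin libraries (0.065 to 0.075). Cox7a1, the heart and muscle isoform, was at 68.8, 80.2 and 35.3 TPM in lung, 34.6, 25.2 and 45.4 in skin and 7.14, 27.8, 0 and 7.3 in small intestine. It was higher in lung at 1.998 ± 0.57 (limma adjusted p = 0.0051) and lower in small intestine at -1.68 (adjusted p = 0.0091), where the call was lost without small intestine 3, the library listed at 0 (-0.77, 0.157). Its call as lower in blood (-1.30, adjusted p = 0.049) was lost without most single libraries, those of other tissues included (adjusted p = 0.164 without blood 1).

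In complex V, the members of the catalytic F1 head and of the membrane part had different orders. Atp5d, the delta subunit of the central stalk, was at 406, 392.5 and 351 TPM in skin and 316, 358 and 335 in lung, above every library of the other tissues (158 to 257 TPM). The log2 difference was 0.75 ± 0.10 (SE) in skin, 0.53 ± 0.10 in lung and -0.52 ± 0.09 in small intestine (limma F-test, adjusted p = 1.223e-07). After median-ratio scaling it was 0.53 in skin and 1.02 in lung, so the order of skin and lung turned. Atp5a1, the alpha subunit of the head, was lowest in lung (133, 100 and 80.2 TPM, below every other library) and was called higher in colon (273.5 ± 26.37 TPM, SD, n = 3) and small intestine (254 ± 24.2, n = 4). The small intestine call was lost after median-ratio scaling (limma adjusted p = 0.098) or quantile normalization (0.465) and without small intestine 2 (0.054) or 4 (0.085). Without colon 1 the colon call was lost (limma adjusted p = 0.098), as without colon 4 (0.0627) and after median-ratio scaling (0.056) or quantile normalization (0.101).

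Of the 9 stalk and membrane part subunits outside the c ring, 7 were lower and 1 higher in small intestine (median log2 difference -0.57) and 3 lower and 0 higher in colon (-0.32), while 0 of the 3 c ring genes were called in either. Atp5h, a peripheral stalk subunit (chr11:115415689-115419962, minus strand), was at 267, 251, 397 and 358 TPM in small intestine, below every library of the other tissues, with 411, 457 and 452 in colon and 817, 861 and 715 in bone marrow. Small intestine was lower at -1.001 ± 0.11 (SE, log2, limma adjusted p = 3.871e-08). Atp5l, the g subunit, had its highest mean in lung (951, 1051 and 931 TPM) and lowest in small intestine (393, 468, 446 and 490). Atp5g1, which encodes the proton-carrying c ring, had its highest mean in bone marrow (231, 311 and 281 TPM), where all 3 c ring genes were called higher under all 3 scalings. In blood all 3 were called lower, and with quantile normalization Atp5g1 alone was (limma adjusted p = 0.0059, against 0.417 for Atp5g2 and 0.168 for Atp5g3). Atp5md, a small subunit of the dimer and the most abundant member of complex V, had its highest mean in small intestine (1295, 1211, 1017 and 1113 TPM), overlapping lung and skin.

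Bone marrow had the most members called higher of the 7 tissues. Against the mean of the 6 other tissues, 52 of 87 members were higher, where 22% of all genes were, and 2 were lower, where 19.2% of all genes were. The median log2 difference was 0.49 over the members and 0.08 over all genes, and 72 members lay above the median gene. By complex, 26 of 37 complex I, 1 of 4 complex II, 4 of 8 complex III, 6 of 13 complex IV and 12 of 17 complex V subunits were higher, with complex medians of 0.61, -0.16, 0.48, 0.26 and 0.47. The membrane arm of complex I had 16 of 20 and the matrix arm 9 of 16 called higher. The median of complex II stayed below 0 with median-ratio scaling (-0.05) and was above 0 with quantile normalization (0.07). The 2 members called lower were Sdhb (-0.38 ± 0.12) and Cox8a (-0.32 ± 0.10), and neither was called by limma without bone marrow 1 (adjusted p = 0.23 and 0.0632) or after median-ratio scaling (0.053 and 0.111). Without that library 0 members were lower. Of those called higher, Atp5b, Cox6b1, Ndufb4, Ndufs7 and Uqcrq were not called when any 1 bone marrow library was left out (limma adjusted p = 0.0535 to 0.169). Others lost the call on leaving out some of these libraries. The same libraries held the precursor genes given above at 50670 to 58960 TPM and the 12 listed eosinophil genes, with their granule proteins, at 102700 to 143100 TPM, against at most 44440 TPM elsewhere, and the part of these cells in the result was not tested.

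Small intestine and colon had more members lower than higher. In small intestine 31 of 87 members were lower, where 16.1% of all genes were, and 10 were higher, where 24.7% were. The members' median was -0.17, while that of all genes was 0.11. Complex IV had 6 of 13 and complex V 8 of 17 subunits lower, and complex I had 13 of 37 lower and 4 higher. For complex III, with 2 lower and 2 higher of 8, the median was 0.15 and turned to -0.11 with quantile normalization, and 0 of the 8 were higher under either other scaling. Without small intestine 4, 6 members were higher. In colon 20 members were lower, where 6.36% of all genes were, and 3 were higher, where 14.4% were, with a median of -0.20 against 0.09 for all genes. Without colon 2, 13 were lower, and the higher count was 0 without colon 1 and 1 without colon 4. Both gut counts were larger after scaling, with 42 lower in small intestine and 33 in colon by median-ratio and 53 and 39 by quantile normalization. The shares of all genes lower were then 19% and 8.48% by median-ratio and 21.8% and 9.79% by quantile normalization. The 3 measured stromal and endothelial markers of a list of 8 (Col1a2, Dcn and Pecam1) summed to between 91.9 and 154.6 TPM in colon, between 165.2 and 215 TPM in small intestine and at most 53.4 TPM elsewhere, and their part was not tested. The sum does not tell how much of it was Pecam1, or which cells carried these transcripts.

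For lung, the count depended on scaling in both directions. In deposited TPM 28 members were lower, where 42.4% of all genes were, and 12 were higher, where 9.62% were. The members' median was -0.16 while the median gene was at -0.57, so 68 of the 87 members lay above the median gene. After median-ratio scaling 39 were higher and 9 lower, where 18.9% and 25.9% of all genes were, and the members' median turned to 0.31. With quantile normalization it was 0.03, with 12 higher and 13 lower, where 17.7% and 17.3% of all genes were. Without lung 2, 7 members were higher. The erythroid genes ranged from 2264 to 29140 TPM over the lung libraries, and their part was not tested. Ndufaf5, an assembly factor at 2.6, 0 and 1.34 TPM in lung, was called lower (-1.58), and not without lung 2 (limma adjusted p = 0.095) or after quantile normalization (0.142).

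In blood 25 members were lower, where 18.3% of all genes were, and 10 were higher, where 14.2% were. These counts were unsteady: 12 were lower without blood 1 and 13 without blood 4. Quantile normalization gave 7 lower and 28 higher, where 15% and 18.8% of all genes were, turning the members' median from -0.12 to 0.05. The 3 c ring genes and 4 of 7 assembly factors (Ndufaf2, Ndufaf4, Ndufaf5 and Ndufaf7) were among those lower, and quantile normalization left 1 and 3 of them. Ndufaf5 was not called under either other scaling (limma adjusted p = 0.058 and 0.08), and Ndufaf4 was not called without blood 1 (0.077) or blood 2 (0.11). The same blood libraries held the erythroid genes at 39110 to 118800 TPM, whose part was not tested. In spleen 17 members were higher, where 17.4% of all genes were, and 7 were lower, where 12.5% were. The share of members was near that of all genes, and without spleen 1 only 9 were higher. Without spleen 2 or spleen 3, 4 were lower, and 3 without spleen 4. The spleen median of 0.09 turned to -0.03 with median-ratio scaling, which left 8 higher, where 12.7% of all genes were. Some of the largest spleen differences were not steady: Ndufaf7 (-1.05) was not called without spleen 1 (limma adjusted p = 0.06) or spleen 4 (0.084), nor Uqcrq (-0.43) without spleen 2 (0.257), spleen 4 (0.176) or after quantile normalization (0.153).

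In skin 18 members were higher, where 22.2% of all genes were, and 14 were lower, where 12.5% were. Complex IV had 5 of 13 and complex V 7 of 17 subunits higher, while complex I had 4 higher and 9 lower of 37. The members' median of 0.15 turned to -0.07 with median-ratio scaling, which left 5 higher and 22 lower, where 15% and 16.6% of all genes were. Quantile normalization left 10 higher, where 15.4% of all genes were. Without skin 1, 10 were higher, and without skin 2, 9 were lower. Ndufc1, a small membrane arm subunit at 215, 121 and 133 TPM in skin, was called higher (0.71), but not without skin 1 (limma adjusted p = 0.282) or skin 4 (0.057), nor after median-ratio scaling (0.154) or quantile normalization (0.189). The 3 measured macrophage markers of a list of 7 summed to between 217.8 and 298.5 TPM in skin and to at most 166.8 TPM elsewhere, and their part was not tested.

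The direction in several tissues went with transcript length, a property the choice of members did not use. Median transcript lengths could be read for 84 members (GENCODE vM21, build GRCm38) and ran from 321.5 bases for Atp5k to 3632 for Ndufaf4. Across these members, the rank correlation of length with the difference was 0.447 in small intestine, -0.482 in lung and 0.34 in colon, and 0.386 over 80 members in the sort. Across all genes with a length it was -0.001, 0.046, 0.026 and 0.188. Of the 42 members up to the median length of 746.25 bases, 20 were lower in small intestine and 1 was higher, and of the 42 longer ones 10 were lower and 8 higher. In lung the shorter members had 8 lower and 8 higher and the longer ones 19 lower and 3 higher. The points are genes measured in the same libraries, so the values are descriptions, and the part of length in the differences was not tested. TPM divides by length, and the effective length that the authors' software used is not given in the sources used here.

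**Figure D4:**
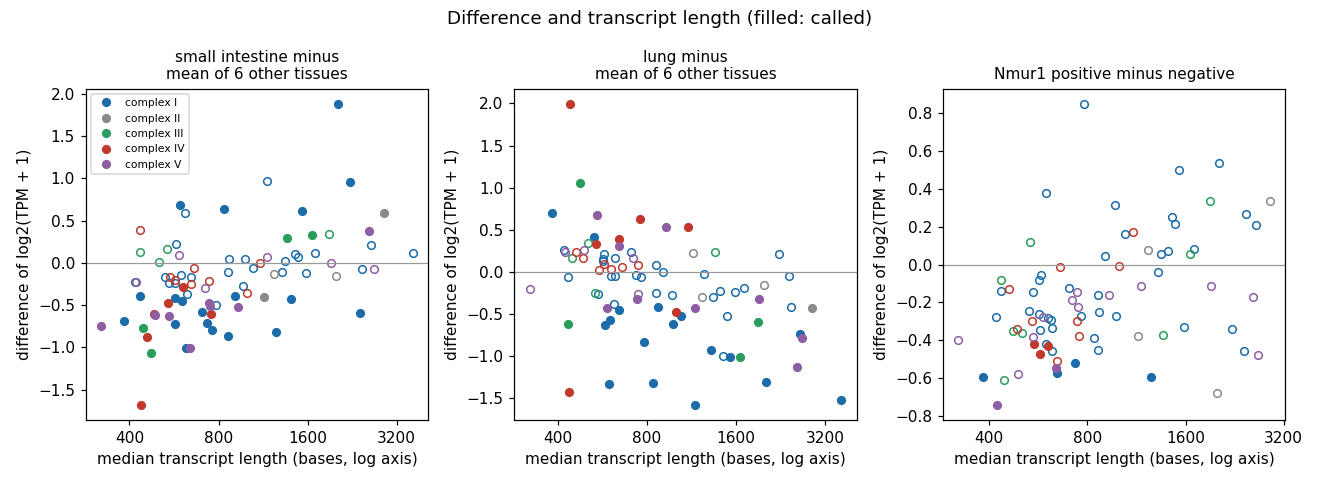
Difference of log2(TPM + 1) (vertical axis) of each member against its median transcript length in bases (horizontal log axis) for small intestine, lung and the sort. Filled points were called and colours mark complexes. Short members lie mostly below 0 in small intestine and on both sides of 0 in lung.

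Genes around the respiratory chain are given beside the shares called over all genes, which were 24.7% higher and 16.1% lower in small intestine, 14.4% and 6.36% in colon, 22.2% and 12.5% in skin, 22% and 19.2% in bone marrow, 9.62% and 42.4% in lung, and 14.2% and 18.3% in blood. Of 18 genes of the citric acid cycle and pyruvate dehydrogenase tested, 10 were higher and 0 lower in small intestine, among them Mdh2 (malate dehydrogenase, log2 difference 1.44) and Cs (citrate synthase, 1.56), and 6 were higher and 1 lower in colon, where quantile normalization left 2 higher. Of 19 glycolysis genes tested, 12 were higher and 0 lower in colon, among them Gapdh (1.44) and Ldha (0.86), and 6 higher and 4 lower in small intestine, where both other scalings gave 5 higher and 7 lower. Of 22 genes of mitochondrial protein import, 13 were higher and 0 lower in skin, where 4 were higher under either other scaling, and 8 higher and 4 lower in small intestine, which turned to 5 and 6 with median-ratio scaling and 3 and 6 with quantile normalization. Of 34 assembly factors outside the rule, 10 were higher and 2 lower in bone marrow and 22 lower and 3 higher in lung, where most genes were low. Mobile carriers and nucleotide exchangers, 17 tested, had 9 higher and 2 lower in bone marrow and 8 lower and 0 higher in blood, where Cycs, cytochrome c, was at -2.07. Of 14 regulators of mitochondrial biogenesis, 3 were higher and 1 lower in bone marrow and 8 lower and 1 higher in lung. The F-test called 16 of 18, 18 of 19, 20 of 22, 25 of 34, 16 of 17 and 12 of 14 genes of these lists, against 81.1% of all genes. All calls are limma calls adjusted over all genes.

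In the sorted small intestine cells, members were lower or not called in Nmur1-positive libraries. Of 83 members, 9 were lower, where 5.25% of all genes were, and 0 were higher, where 9.18% were. At an unadjusted p under 0.05, limma gave 24 lower and 1 higher, with no share over all genes at that threshold to set beside it. The median difference was -0.26 over the members and 0.22 over all genes, and 9 members lay above the median gene. With the replicate number as a block, 17 were lower and 3 higher, where 5.94% and 10.9% of all genes were, and 8 of the 9 were called in both fits. The blocked difference rests on 4 same-numbered pairs, with 3 residual degrees of freedom. Positive 1, negative 2 and negative 7 have no partner and do not enter it. By complex, 4 of 37 subunits of complex I, 0 of 4 of complex II, 0 of 8 of complex III, 3 of 11 of complex IV and 2 of 17 of complex V were lower, with medians of -0.16, -0.15, -0.22, -0.34 and -0.28. With the block these counts of complexes I to V were 5, 0, 1, 6 and 5 lower, and 2 complex I subunits and 1 complex II subunit were higher. They were 7, 0, 3, 8 and 5 lower with median-ratio scaling, where 7.42% of all genes were. With quantile normalization they were 4, 0, 1, 2 and 3 lower, where 6.63% of all genes were. All 5 medians stayed below 0 under both other scalings. Without positive 1 or without negative 2, 1 member was called higher.

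The summed level was 17130 ± 1883 TPM in positive (SD, n = 5) and 20400 ± 2208 TPM in negative libraries (n = 6), and the ranges of 14906.1 to 19175.5 and 18419.5 to 24368.9 overlapped. Size factors of 1.036 to 1.112 in positive and 0.873 to 0.999 in negative libraries widened the gap after scaling, to 15960 ± 1744 (n = 5) and 21740 ± 3392 (n = 6). The sum of complex IV was 5123 ± 481.7 and 6400 ± 743.1 TPM (n = 5 and 6), and that of complex II 290.2 ± 53.28 and 303.1 ± 33.87. Pecam1, the 1 of 8 listed stromal and endothelial markers in this table, was at 155.5 to 235.4 TPM in positive and 78.03 to 145.1 in negative libraries. This gene alone does not tell which cells carried it, the eosinophils included. S100a9 and Ngp, the measured 2 of 10 precursor markers, summed to 10.92 to 159.8 TPM and 24.31 to 421.1 TPM. The 3 measured macrophage markers of 7 summed to 62.54 to 99.76 TPM in positive and 37.9 to 61.31 TPM in negative libraries. Prg2, a granule protein, was at 6.99 to 29.79 TPM and 27 to 83.51 TPM. The part of these genes in the result was not tested.

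The largest sort difference was that of Atp5e, the epsilon subunit of the F1 stalk. It was at 346, 481, 391.96, 485 and 435 TPM in positive libraries, and the 6 negative libraries had a lowest value of 589, a median of 684 and a highest value of 950 TPM. No positive library reached the lowest negative one, and the difference was -0.74 ± 0.14 (SE, log2, limma adjusted p = 0.0015; with the block, -0.71, 0.00083). Atp5h was at 293, 262, 294, 328 and 290 TPM in positive and went from 350 to 523 (median 436) in negative libraries, again without overlap (-0.55 ± 0.12, adjusted p = 0.0064). Ndufa6 was at 253, 321, 364, 365 and 267 TPM in positive and went from 428 to 594 (median 451) in negative libraries (-0.59 ± 0.13, adjusted p = 0.007). Ndufa13, a membrane arm subunit also known as GRIM-19, was at 67.9, 69.1, 64.5, 84.4 and 69.5 TPM in positive and went from 86.7 to 140 (median 107) in negative libraries (-0.59 ± 0.16, adjusted p = 0.017).

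In complex IV, Cox8a, a small subunit, was at 799, 697, 868, 886 and 759 TPM in positive and went from 967 to 1202 (median 1064) in negative libraries (-0.42 ± 0.11, limma adjusted p = 0.015; 0.178 after quantile normalization). Cox6c was at 454, 504, 519, 589 and 510 TPM in positive and went from 604 to 932 (median 645) in negative libraries (-0.43 ± 0.13, adjusted p = 0.03). Leaving out 1 of 6 libraries (positive 1, 3, 4 or 8, negative 3 or 5) or quantile normalization brought its adjusted p to between 0.056 and 0.071. Cox6a1 was at 375, 626, 476, 554 and 491 TPM in positive and went from 582 to 771 (median 700.0) in negative libraries, with 1 positive library inside the negative range (-0.47 ± 0.13, adjusted p = 0.023; 0.055 without positive 1 and 0.053 without positive 4). Ndufv3, a small subunit of the NADH-oxidising module, also overlapped, at 108, 90, 93.1, 103 and 143 TPM in positive and went from 125 to 201 (median 153) in negative libraries (-0.57 ± 0.17, adjusted p = 0.03). Its call was lost without positive 3, 4 or 5 or negative 5, 7 or 8 (adjusted p = 0.056 to 0.074). Ndufb10, the ninth member called, was at 89.53 ± 16.03 TPM (SD, n = 5) and 127.8 ± 15.9 (n = 6), and with the block its limma adjusted p was 0.07. It was also not called when positive 1 or 5 or negative 3, 5, 7 or 8 was left out (adjusted p = 0.052 to 0.084).

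**Figure D5:**
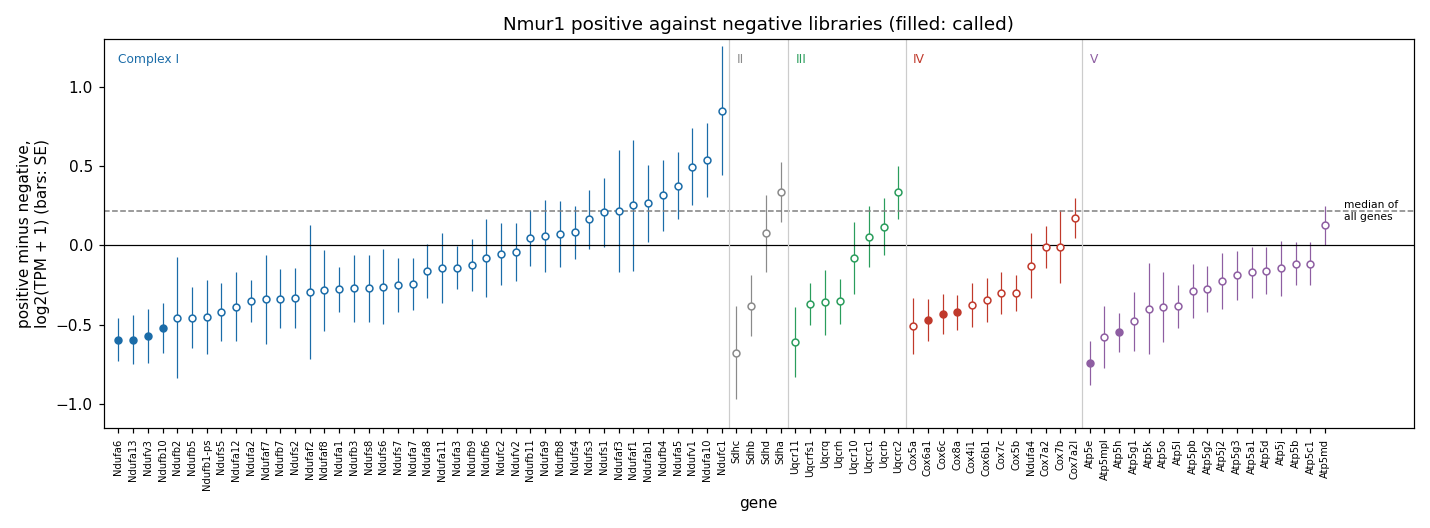
Difference of log2(TPM + 1) between Nmur1-positive (n = 5) and Nmur1-negative (n = 6) libraries (vertical axis) for each of 83 members (horizontal axis, ordered within complexes), with SE as bars. Filled points were called and the dashed line is the median of all genes at 0.22. Most points lie below both lines, and all 9 filled points are below 0.

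Complexes II and III had no called member in the sort without the block. Uqcrq, a small subunit of complex III, was at -0.36 (limma adjusted p = 0.259), and with the block at -0.575 (0.035). Sdha was at 104, 141, 152, 114 and 121 TPM in positive and went from 71.7 to 165 (median 94.6) in negative libraries (0.34 ± 0.19, limma adjusted p = 0.255), and with the block the difference was 0.56 (adjusted p = 0.022). The library at 165 TPM, negative 2, has no partner and does not enter the blocked difference. Without the block, Sdha was not called on leaving out any 1 library (lowest limma adjusted p = 0.0599). Sdhb was at 104.3 ± 26.56 and 134.2 ± 25.21 TPM (SD, n = 5 and 6; -0.38, limma adjusted p = 0.202), Sdhc at 19.25 ± 9.257 and 29.06 ± 6.357 TPM (-0.68, 0.132) and Sdhd at 40.25 ± 12.65 and 37.49 ± 9.027 TPM (0.08, 0.86), and the sign of Sdhd turned under both other scalings. Uqcr11 was at 76.1, 80, 82.2, 118 and 97.2 TPM in positive and went from 84.9 to 234 (median 127) in negative libraries (-0.61, adjusted p = 0.077; 0.038 after median-ratio scaling and 0.023 without negative 4). Uqcrfs1, the Rieske iron-sulfur subunit, was at 127, 187, 156, 162 and 153 TPM in positive and went from 181 to 237 (median 201) in negative libraries (-0.37, adjusted p = 0.074; 0.0088 after median-ratio scaling and 0.024 after quantile normalization). Ndufa10 and Ndufc1 were called higher only with the block, at 0.66 (adjusted p = 0.033) and 0.80 (0.021), against 0.132 and 0.174 without it. Of the 4 pairs of libraries that share a number, the positive library was the lower one in all 4 for 30 members and in none for 7. The same count was not made over all genes, so whether members stand out in it cannot be told.

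Around the chain, few genes were called in the sort, where 9.18% of all genes were higher and 5.25% lower. The citric acid cycle list had 1 higher and 2 lower of 18, the lower ones being Cs (-1.495) and Mdh2 (-0.54), both higher in small intestine than in the other tissues. Assembly factors outside the rule had 2 higher and 0 lower of 26, mobile carriers 0 higher and 2 lower of 14, regulators 0 higher and 1 lower of 13, protein import 0 higher and 1 lower of 21, and glycolysis 3 higher and 3 lower of 16.

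The wildtype tissue libraries and the reporter libraries are separate tables, so their levels were not compared. Side by side, members called lower both in small intestine against the other tissues and in Nmur1-positive against negative cells included Atp5h, Ndufa6, Ndufa13, Ndufb10 and Cox6c. The small intestine call of Cox6c was lost without small intestine 2 (limma adjusted p = 0.079). Atp5e (-0.23, limma adjusted p = 0.113), Cox6a1 (-0.20, 0.112) and Cox8a (-0.16, 0.126) were called in the sort and not in small intestine. Ndufa10 was higher in small intestine, and in the sort it was called only with the block. Reads of 29 members cannot be assigned with certainty, since their exons share bases with another annotated gene, mostly on the opposite strand (Cox4i1, Cox6c, Ndufa13, Atp5a1, Atp5d, Atp5l and Uqcrb among those named), and respiratory genes also have many processed pseudogenes whose reads the authors' software splits.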

How the data were processed

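The authors deposited TPM values per gene and library, in 1 table for 24 tissue libraries and 1 for 11 sorted libraries of full-length Smart-seq2 cDNA, read as 150 bp pairs. The submitters' processing notes name, with no order or settings, RSEM 1.3.3, STAR 2.7.5c, cutadapt 2.10 and build mm10. A single-cell sample was not analysed here.

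Values were analysed as log2(TPM + 1), which understates differences of low genes, with limma 3.58.1 in R 4.3.3 (trend, two-sided) and no covariate. Genes with 1 TPM or more in at least 3 tissue libraries (9806) or 5 sorted libraries (7982) were tested, with Benjamini-Hochberg adjustment over all of them and a threshold of 0.05. Comparisons were the F-test over 7 tissues, each tissue against the unweighted mean of the 6 others, which share libraries and are not independent, and positive against negative. Alternatives were a pseudocount of 0.1, no filter, median-ratio scaling, quantile normalization, the replicate number as a block, robust variance, subunits only and leaving out each library. The fit was tested on simulated data.

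Members, gene lists and tests were chosen with earlier results of these data known. The text names, in each complex, members with the 4 smallest F-test p and the highest mean; up to 3 rises and 3 falls per tissue; up to 3 called per complex in the sort; all of complex II and restricted isoforms. Ndufb10, and Ndufa10 and Ndufc1 in the sort, were added after their values were seen.

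Same-numbered sorted libraries (4 pairs) deviated together, with correlations of 0.164 to 0.225. The 26 other pairs had a median of -0.0425 and ran from -0.175 to 0.194, with 3 over 0.1, so the ranges overlapped. Numbers were taken to pair the libraries, and the pairing comes from this check, not from the labels. Coordinates and lengths came from GENCODE vM21, and promoter sequences from RefSeq.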

Additional observations from a re-analysis of the deposited data

Results flagged for a closer look

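Within groups of 4 to 6 libraries, a part of the members and the summed complexes were examined for a single library far from the others (Dixon's test at 95%). Members not given here were not necessarily examined. Of 184 groups, 13 had one, and chance alone gives about 1 in 20, or 9.2. Spleen 1 stood high for Cox8a (1210.15 TPM, others 985.6 to 1005), Ndufa4 (712.42 TPM, others 538.5 to 561.5) and summed complex IV (9199.22 TPM, others 7581 to 7675). It was also the spleen library with the highest sum over all members. Cox6b2 was at 1.56 TPM in spleen 2 and listed at 0 in the other 3. Cox7a1 was at 24.18 TPM in blood 3, against 4.5 to 5.12 in the others. In small intestine, Ndufb9 was at 211.95 TPM in library 1 (others 199.5 to 201.5), Uqcrfs1 was low at 140.42 TPM in library 2 (others 180.5 to 184.8), and summed complex V was at 5620.91 TPM in library 4 (others 5365 to 5392).

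In the sort, negative 5 stood high for Ndufa6 (594.4 TPM, others 427.9 to 469.6) and for summed complex V (7173.43 TPM, others 5597 to 6155). Sdha was at 165.36 TPM in negative 2 (others 71.68 to 100.4) and Sdhc at 41.03 TPM in negative 4 (others 23.81 to 30.06). Ndufa13 was at 84.39 TPM in positive 5 (others 64.49 to 69.53).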

How the results depend on the processing

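The F-test count of 79 stayed between 74 and 82 under every alternative run. The next counts of members have the share of all genes under the same setting in brackets. Median-ratio scaling gave 0 lower in bone marrow (17.1%), 8 higher in spleen (12.7%), and 39 higher and 9 lower in lung (18.9% and 25.9%). It gave 5 higher and 22 lower in skin (15% and 16.6%) and 1 higher and 33 lower in colon (11.4% and 8.48%). In small intestine 5 were higher (20.5%), and in the sort 23 were lower (7.42%). Quantile normalization gave 1 lower in bone marrow (25%), 28 higher and 7 lower in blood (18.8% and 15%), 4 lower in spleen (13.7%) and 13 lower in lung (17.3%). It gave 10 higher in skin (15.4%), 1 higher and 39 lower in colon (10.5% and 9.79%), and 4 higher and 53 lower in small intestine (18.5% and 21.8%). The replicate block gave 3 higher and 17 lower in the sort (10.9% and 5.94%), and moved no tissue count by over 1.5 times. In the tissue table same-numbered libraries did not deviate together (62 pairs, correlations of -0.045 to 0.088), so there the block shares only a number. The cause of these shifts was not tested.

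Leaving out 1 library gave 0 to 3 lower in bone marrow, 12 to 26 lower in blood, 9 to 19 higher and 3 to 8 lower in spleen, 7 to 13 higher in lung, 10 to 21 higher and 9 to 15 lower in skin, 0 to 4 higher and 13 to 21 lower in colon, 6 to 10 higher in small intestine and 0 to 1 higher in the sort. Of 2158 values of named genes under alternatives, 2058 kept direction and side of the threshold, 84 lost a call, 11 gained one and 5 turned. These 5 were Sdhd in the sort, at -0.1057 with median-ratio scaling, -0.0932 with quantile normalization, and -0.0437 to 0.2486 leaving out 1 library. With no read counts, the precision that depth gives each value is unknown, and low members such as Ndufaf4 and Cox6b2 are the least certain.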
